A study of Homo sapiens with 12 samples.

Results

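The AP-1 factor genes described here are 9 of the 23228 genes in the deposited count files: FOS, FOSB, FOSL1 and FOSL2, which encode the FOS-type proteins, JUN, JUNB and JUND, which encode the JUN-type proteins, and ATF3 and MAFF. They were chosen by symbol as members of the AP-1 family and its close partners, and all 9 had enough counts to be tested. RNA was sequenced from MDA-MB-468, a human triple-negative breast cancer cell line, engineered to make full-length estrogen receptor beta (ERβ1, encoded by ESR2) when given doxycycline. Each of 4 groups had 3 libraries. Induced E2 cells had doxycycline at 50 ng/mL for 48 hours and then 17β-estradiol (E2) at 10 nM for 4 hours. Induced vehicle cells had the same doxycycline and then 0.1% DMSO for 4 hours. Uninduced E2 and uninduced vehicle cells had no doxycycline and then the same E2 or DMSO. All groups carried the inducible receptor gene, so doxycycline itself and ERβ1 cannot be told apart. The labels call the samples triplicates and name no separate cultures for them, and the p-values therefore cover only how these libraries spread, which may be technical. The labels do not say whether the line is 1 clone.

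AP-1 is a dimer of basic leucine zipper (bZIP) proteins. FOS-type proteins need a JUN-type partner to bind DNA, whereas JUN-type proteins also pair with each other. ATF3, a stress-induced member of the ATF/CREB family, and MAFF, a small MAF protein that lacks an activation domain of its own, pair with overlapping sets of bZIP proteins. Several of these genes are immediate early genes, transcribed within minutes of growth factor or stress signaling into mRNAs that decay fast. In breast cancer cells AP-1 is known both as a growth regulator and as a tether through which estrogen receptors act at sites without an estrogen response element.

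The 12 libraries held 7.89 M to 33.3 M expected counts, the estimated reads per gene, and uninduced vehicle replicate 1 was the shallowest. ESR2 had 116, 98.6 and 98.0 CPM (TMM-scaled counts per 1000000) in induced E2 and 134, 113 and 115 in induced vehicle libraries. It had 2.26, 1.28 and 1.27 CPM in uninduced E2, and 1.37, 1.06 and 1.47 in uninduced vehicle libraries. Every library thus followed the doxycycline part of its label. The E2 or vehicle part cannot be checked by ESR2. EGFR at 802 to 1020 TPM (the deposited share of transcripts times 1000000, a level per length) and KRT8 at 2260 to 3590 TPM were among 10 epithelial markers, all present, with sums of 11900 to 12200 TPM in induced E2, 10400 to 11100 in induced vehicle, 10100 to 10700 in uninduced E2 and 10500 to 10600 in uninduced vehicle libraries. With E2 in induced cells 3 of the 10 rose (CDH1, KRT8 and KRT18) and 0 fell at an adjusted p under 0.05 in edgeR. That is 30% called, against 16.5% of all genes tested. With the replicate number as a block 4 rose and 2 fell, where 23.8% of all genes were called. With induction alone the same 3 rose and the basal keratins KRT5, KRT6B, KRT14 and KRT17 fell in edgeR, or 70% called against 3.81% of all genes. Of the receptors by which a triple-negative line is classed, RNA of PGR stood at 0 to 0.0267 TPM, of ESR1 at 1.07 to 2.10 TPM and of ERBB2 at 30.6 to 39.0 TPM. DCN and LUM, markers of fibroblasts, were at 0 in all 12 libraries. The summed level of 5 fibroblast markers was 8.32 to 9.94 TPM in induced E2, 8.81 to 10.1 in induced vehicle, 8.90 to 9.57 in uninduced E2 and 8.05 to 9.64 in uninduced vehicle libraries. That of 4 leukocyte markers, most of it CD14, was 30.2 to 38.5 TPM in induced E2, 36.6 to 52.2 in induced vehicle, 39.3 to 49.9 in uninduced E2 and 35.9 to 50.0 in uninduced vehicle libraries. That of 4 endothelial markers, most of it KDR, was 7.79 to 9.85 TPM in induced E2 and 7.23 to 9.76 TPM in induced vehicle, against 12.6 to 17.7 TPM in uninduced E2 and 13.6 to 18.5 TPM in uninduced vehicle libraries. This sum hides members that moved apart. VWF rose by 2.91 log2 (SE 0.25) with E2 in induced cells, and KDR fell by 0.97 log2 (SE 0.16) with induction alone. The part of these markers in the AP-1 results was not tested.

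Upstream sequence was at hand for 8 of the 9 genes, all but FOSL1, from RefSeq (GRCh38.p14, another build than the hg19 that the submitters' processing notes name). FOS and MAFF are shown because they had the largest increases with E2 in induced cells, JUND because it had the largest of the JUN-type genes, and JUN because it fell with induction. Each line gives the 250 bases before the transcription start, 5′ to 3′ on the strand of the gene. Capitals mark matches on either strand to TGACG, the core of a cAMP response element, and to TGACNTCA, an octamer that includes the full element TGACGTCA and overlaps the core.
FOS (chr14:75278578-75278827, plus strand): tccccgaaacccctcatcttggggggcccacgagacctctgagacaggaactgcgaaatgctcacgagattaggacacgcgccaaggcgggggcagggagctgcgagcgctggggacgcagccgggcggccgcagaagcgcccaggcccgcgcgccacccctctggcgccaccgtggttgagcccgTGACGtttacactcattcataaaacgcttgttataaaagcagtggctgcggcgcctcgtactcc
MAFF, first of 2 starts (chr22:38201744-38201993, plus strand): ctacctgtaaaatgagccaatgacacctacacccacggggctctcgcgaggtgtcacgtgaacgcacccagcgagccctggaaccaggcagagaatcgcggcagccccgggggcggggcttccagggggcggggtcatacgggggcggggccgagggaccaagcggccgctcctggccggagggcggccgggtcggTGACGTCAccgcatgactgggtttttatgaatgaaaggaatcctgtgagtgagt
JUND (chr19:18281623-18281872, minus strand): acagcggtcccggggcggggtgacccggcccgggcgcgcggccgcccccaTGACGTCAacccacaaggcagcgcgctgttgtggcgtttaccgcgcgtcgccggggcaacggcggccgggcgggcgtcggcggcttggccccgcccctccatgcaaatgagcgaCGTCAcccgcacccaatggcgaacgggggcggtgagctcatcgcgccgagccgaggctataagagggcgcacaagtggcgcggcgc
JUN (chr1:58784048-58784297, minus strand): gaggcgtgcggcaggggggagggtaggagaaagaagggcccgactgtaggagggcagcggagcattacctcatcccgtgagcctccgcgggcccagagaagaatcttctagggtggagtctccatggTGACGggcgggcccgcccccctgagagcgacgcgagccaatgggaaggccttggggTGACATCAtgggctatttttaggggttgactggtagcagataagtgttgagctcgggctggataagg

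The full element TGACGTCA was found before the first MAFF start, at bases -54 to -47, and before JUND, at bases -200 to -193. Of 35116 upstream windows of the same length, 1.65% held it. JUN and the first ATF3 start had TGACNTCA without the full element, at bases -67 to -60 and -123 to -116, and 6.87% of all windows held TGACNTCA in any form, against 4 of 10 windows of these genes. FOS had 1 TGACG, at bases -64 to -60. TGACG was in 7 of the 10 windows and in 21.2% of all windows. No window of these genes held TGANTCA, the classic AP-1 site, which was in 6.57% of all windows, a full estrogen response element (GGTCA, 3 open bases, then TGACC, in 0.0399% of all windows) or a CArG box, the site of serum response factor (in 1.16%). GGTCA, 1 arm of an estrogen response element, was in 5 of the 10 windows and in 32.6% of all windows. All motifs were searched on both strands. Sequence farther than 250 bases before a start, or after it, was not searched, so an absence holds for these windows only. A match is a description of these letters and not a bound site.

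**Figure D1:**
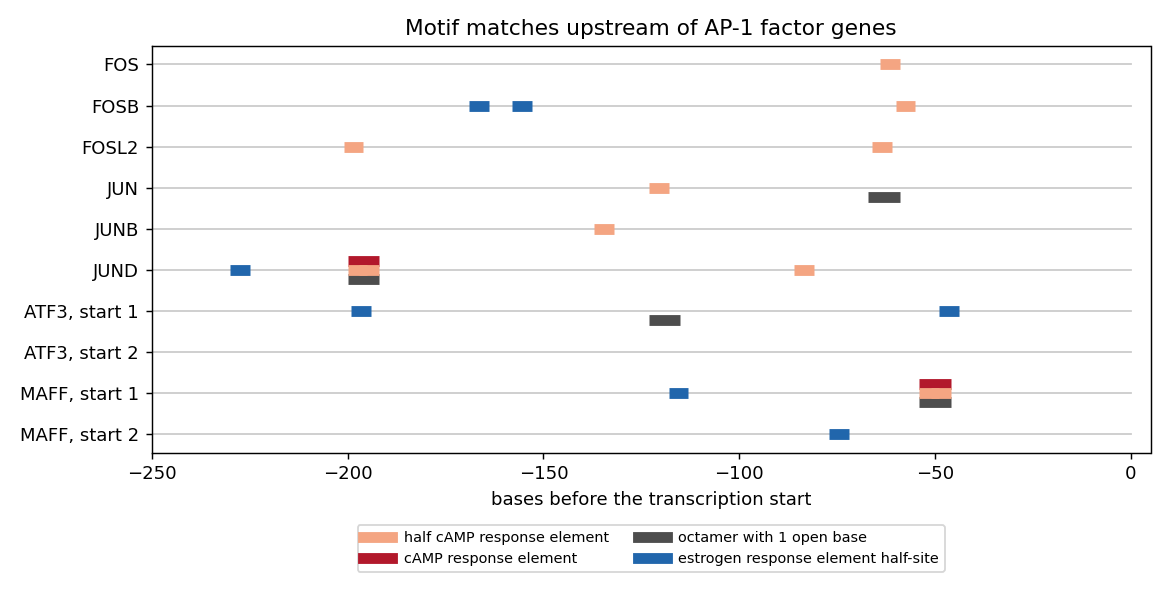
Motif matches in the 250 bases before each annotated start of 8 AP-1 factor genes, with the distance to the start in bases on the x axis and 1 line per start. TGACG cores are orange, TGACNTCA black and GGTCA blue. Full cAMP response elements (red) lie at -54 to -47 before the first MAFF start and at -200 to -193 before JUND, and the second ATF3 start has no match.

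Levels of different genes were compared as TPM, which account for transcript length. In uninduced vehicle cells the JUN-type genes JUND (83.6 ± 6.08 TPM, SD, n = 3), JUNB (64.4 ± 2.96) and JUN (40.2 ± 0.814) came first. FOSL2, which encodes FRA-2, followed at 36.0 ± 1.97 TPM, then ATF3 at 27.6 ± 1.25 and MAFF at 21.2 ± 1.47 TPM. FOS (4.31 ± 1.13 TPM) and FOSL1 (4.21 ± 1.33 TPM) overlapped each other, and FOSB was lowest at 1.11 ± 0.147 TPM. All other neighbors in this order had ranges that did not overlap. FOSL2 was therefore most of the FOS-type RNA of these cells, at 77.3% to 80.3% of it in uninduced vehicle libraries, and FOS was 6.66% to 11.9%.

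The order was different in induced E2 cells. JUND stood at 114 ± 5.91 TPM, JUNB at 71.7 ± 0.370 and MAFF, now the third, at 59.0 ± 1.73 TPM (SD, n = 3 each). ATF3 (36.2 ± 3.52 TPM) and FOSL2 (35.9 ± 0.743 TPM) overlapped. JUN came sixth at 29.9 ± 2.57 TPM and FOS seventh at 14.3 ± 2.72 TPM, above FOSL1 at 5.50 ± 0.992 TPM and FOSB at 1.18 ± 0.217 TPM. In induced vehicle cells FOSL2, JUN, MAFF and ATF3 lay between 26.8 and 30.7 TPM on average, each overlapping its neighbor, and FOS and FOSL1 overlapped as well.

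**Figure D2:**
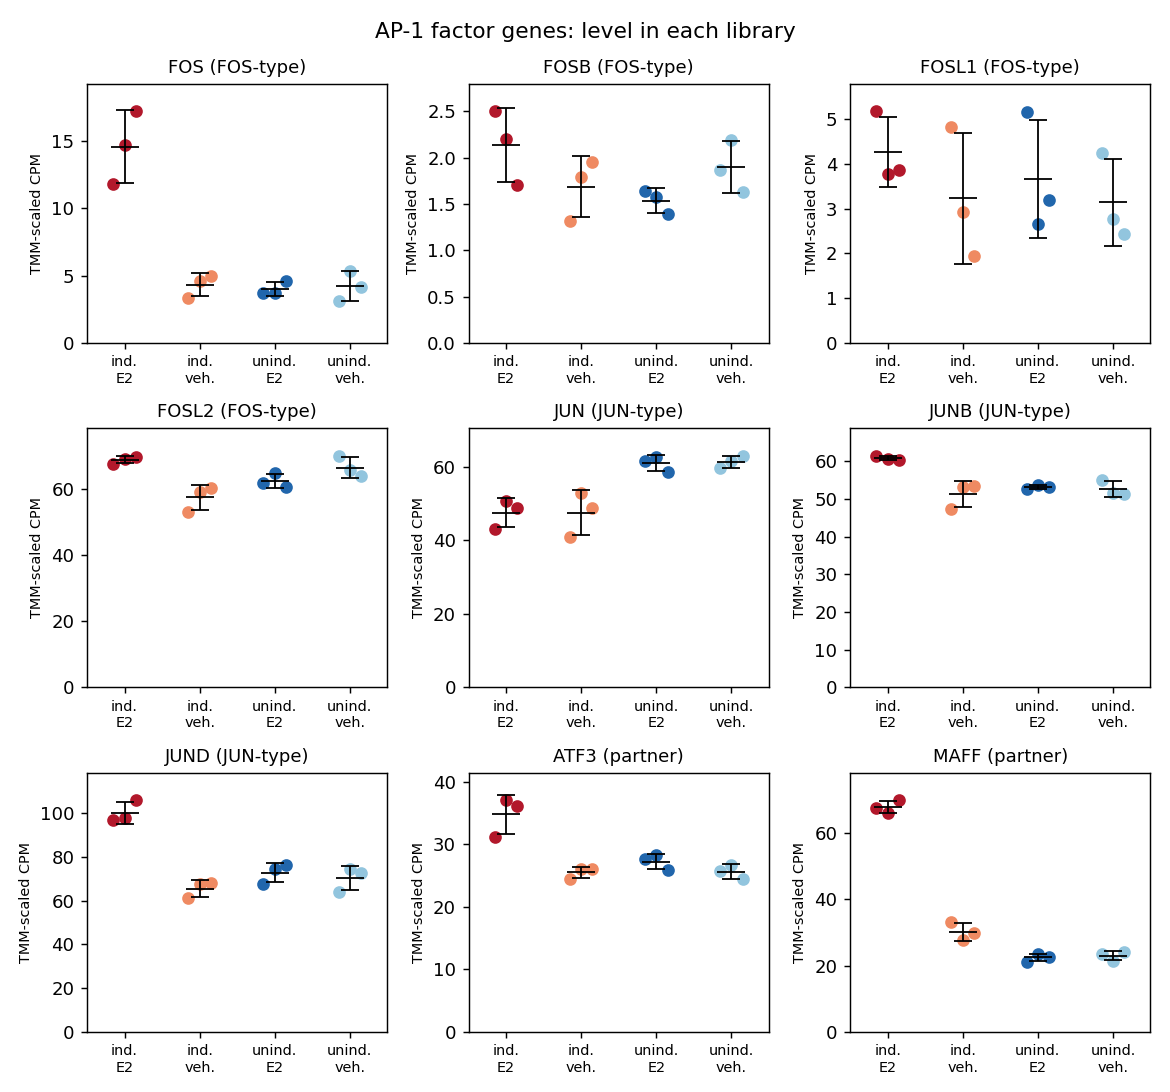
Level of each AP-1 factor gene in CPM (y axis, from 0) in the 3 libraries of induced E2, induced vehicle, uninduced E2 and uninduced vehicle cells (x axis, left to right). Points are libraries, horizontal marks are means and bars are SDs. FOS reaches 11.8 to 17.2 CPM in induced E2 libraries and at most 5.36 CPM in any other, MAFF has a step at induction and a larger one with E2, and JUN is lower in both induced groups.

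The comparison of induced E2 and induced vehicle cells shows the response to E2 in cells that have ERβ1. FOS and MAFF rose most, JUND and ATF3 rose less, FOSL2 and JUNB rose by under 20%, and JUN, FOSB and FOSL1 did not pass the test. Of the 9 genes 6 rose and 0 fell at an adjusted p under 0.05 with edgeR's quasi-likelihood test, adjusted by the Benjamini-Hochberg method over 14541 genes, where 16.5% of all genes were called, 9.85% higher and 6.61% lower. With the replicate number as a block the count was the same, where 23.8% of all genes were called. In bulk RNA a change in the share of cells that express a gene and in RNA per cell cannot be told apart. These 6 were also the members whose induced E2 and induced vehicle libraries did not overlap, as was so for 30.5% of all genes. The median log2 change of the 9 genes was 0.45, against -0.005 over all genes tested. The count was 6 without any single library.

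FOS, the founding FOS-type gene and a short-lived immediate early transcript, had 11.8, 14.7 and 17.2 CPM in induced E2 libraries, against 3.34, 4.59 and 5.00 CPM in induced vehicle libraries. Every induced E2 library was above every induced vehicle library. The increase was 3.31-fold (log2 1.73, SE 0.17, adjusted p = 6.24e-06), and 82 of the 14541 genes had a larger one. Within each of the 4 groups the library numbered 1 had the least FOS, by 0.42 log2 on average. Replicate number goes with the sequencing lane and with a date-like tag in the file names, and the increase was 1.74 log2 with the number as a block.

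FOSL2 had 67.5, 69.0 and 69.7 CPM in induced E2 libraries, against 53.0, 59.0 and 60.1 CPM in induced vehicle libraries. These groups did not overlap, although the change was small: 1.19-fold (log2 0.26, SE 0.05, adjusted p = 0.00236), with 0.0553 without the 4 libraries numbered 2. The level with E2 lay inside the range of uninduced vehicle libraries (63.7 to 69.9 CPM) for all 3 libraries. FOSB had 2.50, 2.2 and 1.71 CPM in induced E2 libraries, against 1.32, 1.79 and 1.95 CPM in induced vehicle libraries, which overlap (log2 0.30, SE 0.20, adjusted p = 0.392). With 15 to 58 counts per library FOSB had the fewest counts of the 9 genes.

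FOSL1, which encodes FRA-1, a FOS-type protein linked to invasive breast cancer cells, had 5.17, 3.77 and 3.87 CPM in induced E2 libraries, against 4.82, 2.92 and 1.95 CPM in induced vehicle libraries. Its level followed the replicate number: the 4 libraries numbered 1 had 4.25 to 5.17 CPM and the other 8 had 1.95 to 3.87 CPM. The difference with E2 was 0.45 log2 (SE 0.30, adjusted p = 0.380), and 0.44 log2 with an adjusted p of 0.0558 with the replicate block. Without the libraries numbered 1 it was 0.60 log2 with an adjusted p of 0.0314, a call that the fit of all libraries did not give.

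Among JUN-type genes, JUND, whose product is often linked to slower growth, had 97.0, 97.9 and 106 CPM in induced E2 libraries, against 61.4, 67.5 and 68.0 CPM in induced vehicle libraries. The groups were far apart, at 1.52-fold (log2 0.61, SE 0.06, adjusted p = 7.07e-06). JUNB, which can oppose JUN on some promoters, had 61.4, 60.7 and 60.4 CPM in induced E2 libraries, against 47.2, 53.1 and 53.3 CPM in induced vehicle libraries. It rose 1.18-fold (log2 0.24, SE 0.05, adjusted p = 0.00226, or 0.0515 without the libraries numbered 3). JUN, whose own promoter is a textbook AP-1 target, had 43.0, 50.6 and 48.9 CPM in induced E2 libraries, against 40.8, 52.9 and 48.8 CPM in induced vehicle libraries. Those groups overlapped, the difference was -0.01 log2 (SE 0.08, adjusted p = 0.957), and its 95% interval ran from -0.18 to 0.16 log2.

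MAFF, which has no activation domain and acts through its partners, had 67.7, 66.1 and 69.9 CPM in induced E2 libraries, against 33.2, 27.7 and 29.8 CPM in induced vehicle libraries. The level was 2.27-fold higher with E2 (log2 1.18, SE 0.06, adjusted p = 1.46e-08), and 51 of the 14541 genes had a smaller p. ATF3 had 31.2, 37.0 and 36.1 CPM in induced E2 libraries, against 24.5, 26.0 and 26.0 CPM in induced vehicle libraries. It rose 1.36-fold (log2 0.45, SE 0.07, adjusted p = 0.000267).

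**Figure D3:**
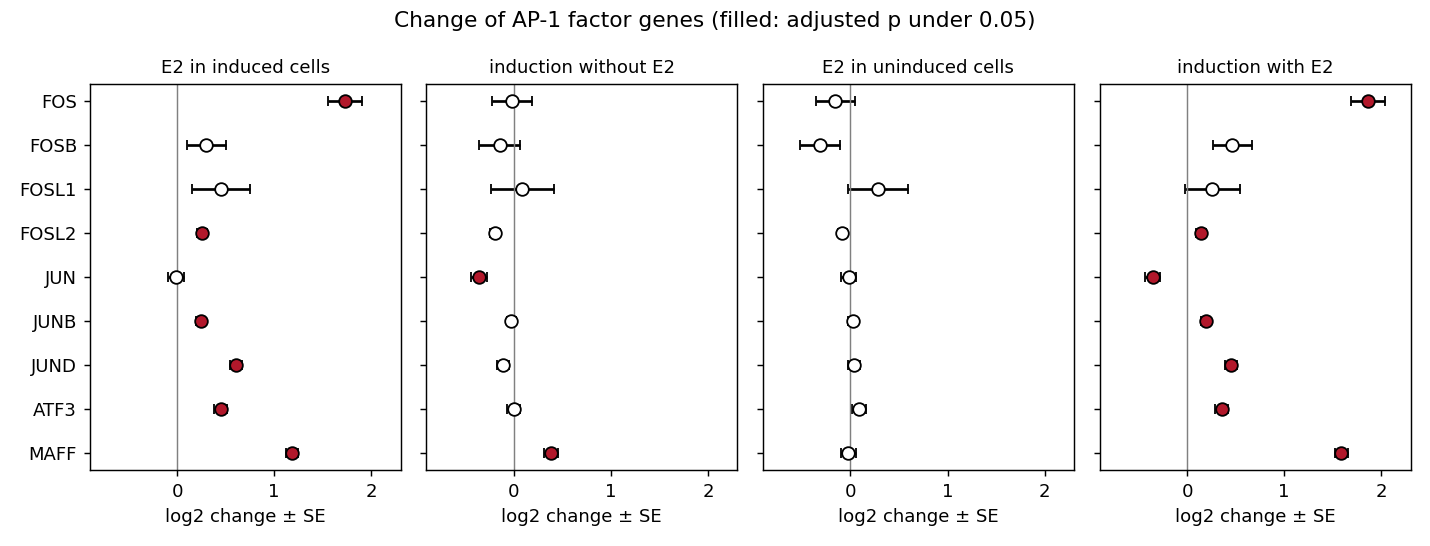
Log2 change (x axis) of the 9 AP-1 factor genes (y axis) in 4 comparisons, with bars of 1 SE from the fit of all 12 libraries and filled points for an adjusted p under 0.05. In induced cells E2 has 6 filled points, from 0.24 for JUNB to 1.73 for FOS, and in uninduced cells none.

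Induced vehicle cells, set against uninduced vehicle cells, show the effect of induction alone. JUN fell and MAFF rose, so the 2 genes called moved in opposite directions. With edgeR 3.81% of all genes were called, 2.44% higher and 1.37% lower, and 10% with the replicate block. JUN had 40.8, 52.9 and 48.8 CPM in induced vehicle libraries, against 59.8, 61.5 and 63.0 CPM in uninduced vehicle libraries. All 3 induced libraries were lower (0.78-fold, log2 -0.36, SE 0.08, adjusted p = 0.0189), but the call ended without induced vehicle replicate 3 (0.0550) or uninduced vehicle replicate 2 (0.0706) or 3 (0.0906). With the replicate block its adjusted p was 0.000278.

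MAFF had 33.2, 27.7 and 29.8 CPM in induced vehicle libraries, against 23.4, 21.4 and 24.2 CPM in uninduced vehicle libraries. It was higher in all 3 (1.31-fold, log2 0.39, SE 0.07, adjusted p = 0.00617, or 0.0528 without uninduced vehicle replicate 2). FOSL2 was the third member whose groups did not overlap, as was so for 20.6% of all genes. It had 53.0, 59.0 and 60.1 CPM in induced vehicle libraries, against 69.9, 65.5 and 63.7 CPM in uninduced vehicle libraries. Its difference of -0.20 log2 (SE 0.05) had an adjusted p of 0.0518, and 0.0165 with the replicate block. The other 6 members lay between -0.14 log2 (FOSB) and 0.09 log2 (FOSL1), with adjusted p of 0.457 to 0.999. The median of the 9 genes was -0.02 log2, against -0.0012 over all genes.

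Uninduced E2 cells, set against uninduced vehicle cells, show what E2 did where the receptor was not induced. The count of members called was 0 of 9 with edgeR, DESeq2 or limma-voom, and in edgeR none of the 9 reached 0.05 before adjustment. Over all genes 0% were called with edgeR, and 227 genes had an unadjusted p under 0.05. FOS had 3.68, 3.73 and 4.61 CPM in uninduced E2 libraries, against 3.12, 5.36 and 4.17 CPM in uninduced vehicle libraries, which overlap. Its difference of -0.16 log2 (SE 0.20) had a 95% interval of -0.58 to 0.27 log2. MAFF had 21.2, 23.5 and 22.7 CPM in uninduced E2 libraries, against 23.4, 21.4 and 24.2 CPM in uninduced vehicle libraries (log2 -0.02, SE 0.07), with an interval of -0.17 to 0.14 log2. These intervals hold no change as large as that seen in induced cells. All 9 members had overlapping libraries, where 6.44% of all genes did not overlap.

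Induced E2 cells, set against uninduced E2 cells, show the effect of induction where all cells had E2. Here 6 of the 9 genes rose and 1 fell, where 28% of all genes were called, 15% higher and 13% lower, and 37.3% with the replicate block. FOS had 11.8, 14.7 and 17.2 CPM in induced E2 libraries, against 3.68, 3.73 and 4.61 CPM in uninduced E2 libraries (3.64-fold, log2 1.86, SE 0.17, adjusted p = 1.22e-06). MAFF had 67.7, 66.1 and 69.9 CPM in induced E2 libraries, against 21.2, 23.5 and 22.7 CPM in uninduced E2 libraries (3.00-fold, log2 1.59, SE 0.07, adjusted p = 2.71e-10). Neither gene had any overlap between these groups.

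JUN was again the member that fell, with 43.0, 50.6 and 48.9 CPM in induced E2 libraries, against 61.5, 62.8 and 58.6 CPM in uninduced E2 libraries (0.78-fold, log2 -0.36, SE 0.08, adjusted p = 0.00284). JUND rose by 0.45 log2 (SE 0.06), ATF3 by 0.36 (SE 0.07) and JUNB by 0.19 (SE 0.05). FOSL2 rose by 0.14 log2 (SE 0.05, adjusted p = 0.0455). That call is weak, since it ended under DESeq2 (0.0571), under upper quartile scaling (0.135), without a filter (0.0645) and in 7 of 12 fits that left out 1 library (0.0524 to 0.153), which were those without any induced E2 library, uninduced E2 replicate 1 or 3, or uninduced vehicle replicate 2 or 3. FOSB did not overlap between the groups but was not called (log2 0.47, SE 0.20, adjusted p = 0.0998), so 8 of 9 members did not overlap, where 41.5% of all genes did not. This comparison shares its induced E2 libraries with that of E2 in induced cells, so the increases in both are not independent.

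Whether the response to E2 depended on induction is tested by the interaction, the log2 change with E2 in induced cells less the one in uninduced cells. FOS had an interaction of 1.88 log2 (SE 0.27, adjusted p = 0.000351), MAFF of 1.20 (SE 0.10, adjusted p = 2.28e-06), JUND of 0.57 (SE 0.09, adjusted p = 0.000743) and FOSL2 of 0.34 (SE 0.07, adjusted p = 0.00763). ATF3 passed as well, at 0.36 log2 (SE 0.10, adjusted p = 0.0325). Its call ended in 8 of 12 fits that left out 1 library (0.0537 to 0.107), those without induced E2 replicate 2 or 3, any induced vehicle library, uninduced E2 replicate 3, or uninduced vehicle replicate 1 or 2. In all, 5 of 9 members were called, all positive, where 8.47% of all genes were called, 5.66% positive and 2.81% negative. Without the 4 libraries numbered 2, the count was 2 members, where 370 of all genes were called, against 1232 with all 12 libraries. There the adjusted p of FOS was 0.0577, that of FOSL2 0.105 and that of ATF3 0.351. Without those numbered 3 it was again 2 members, where 306 of all genes were called. The adjusted p of JUND was then 0.0504, that of FOSL2 0.112 and that of ATF3 0.329. JUNB, at 0.22 log2 (SE 0.07), had an adjusted p of 0.0630, and 0.0352 with the replicate block, under which 14.7% of all genes were called. FOSB (0.61 log2, SE 0.29, adjusted p = 0.276), FOSL1 (0.17, SE 0.43) and JUN (0.00, SE 0.11, interval -0.23 to 0.24) were not called.

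Both FOS-type and JUN-type genes were among those that rose. With E2 in induced cells 2 of 4 FOS-type genes rose (FOS and FOSL2, median of all 4 0.38 log2) and 2 of 3 JUN-type genes rose (JUND and JUNB, median of all 3 0.24 log2), and 0 of either type fell. Summed over the type, FOS-type transcripts were 54.7, 56.5 and 59.6 TPM in induced E2 libraries, against 39.0, 40.9 and 41.0 TPM in induced vehicle libraries. JUN-type transcripts were 210, 215 and 224 TPM in induced E2 libraries, against 156, 177 and 176 TPM in induced vehicle libraries. Both sums were higher in every induced E2 library than in every induced vehicle library. The ratio of the FOS-type to the JUN-type sum lay between 0.220 and 0.266 in all 12 libraries. There were 0.261, 0.263 and 0.266 FOS-type transcripts per JUN-type transcript in induced E2 libraries, 0.251, 0.232 and 0.233 in induced vehicle, 0.243, 0.222 and 0.220 in uninduced E2, and 0.262, 0.240 and 0.226 in uninduced vehicle libraries. The induced E2 ratios lay above the induced vehicle ones by 0.14 log2 on average, or by 0.423 log2 with the mean of log2 member levels in place of sums, and overlapped those of uninduced vehicle cells. As sums over chosen genes they have no test.

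The makeup within each type also differed between groups. FOS was 21.1%, 25.5% and 28.5% of FOS-type transcripts in induced E2 libraries, 8.66%, 11.3% and 12.3% in induced vehicle, 8.35%, 8.81% and 11% in uninduced E2, and 6.66%, 11.9% and 9.90% in uninduced vehicle libraries. JUN was 12.9%, 14.8% and 13.8% of JUN-type transcripts in induced E2 libraries, 17.0%, 19.3% and 18% in induced vehicle, 21.7%, 21.0% and 19.8% in uninduced E2, and 21.4%, 21.0% and 21.6% in uninduced vehicle libraries. The FOS share was thus highest, and the JUN share lowest, in induced E2 cells, with no overlap with any other group. JUN itself was not called with E2 in induced cells (log2 -0.01, SE 0.08, edgeR adjusted p = 0.957), whereas JUND and JUNB rose. JUND exceeded JUN 3.84 ± 0.299 times in induced E2, 2.52 ± 0.206 times in induced vehicle, 2.17 ± 0.179 times in uninduced E2 and 2.08 ± 0.125 times in uninduced vehicle cells (SD, n = 3). MAFF was 16% ± 0.416 of the transcripts of all 9 genes in induced E2, 10.4% ± 1.49 in induced vehicle, 7.19% ± 0.200 in uninduced E2 and 7.50% ± 0.566 in uninduced vehicle cells. The 9 genes together came to 368 ± 13.7 TPM in induced E2, 264 ± 11.5 TPM in induced vehicle, 282 ± 2.48 TPM in uninduced E2 and 283 ± 2 TPM in uninduced vehicle cells.

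**Figure D4:**
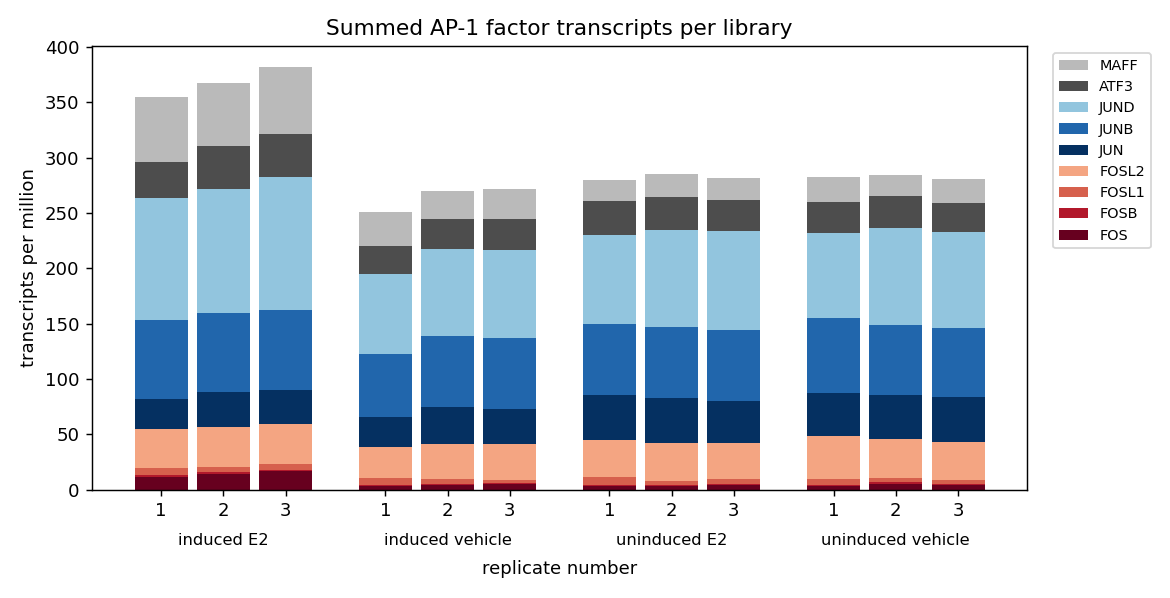
Stacked TPM (y axis) of the 9 AP-1 factor genes in each of the 12 libraries (x axis, by group and replicate number), with FOS-type genes in reds, JUN-type genes in blues and ATF3 and MAFF in greys. The induced E2 bars reach 355 to 382 TPM and the others 251 to 285 TPM, with MAFF at 59.0 TPM on average in induced E2 and 27.3 TPM in induced vehicle libraries.

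Some genes for bZIP proteins that pair with AP-1 factors rose and others fell with E2 in induced cells. Of 18 tested partner genes of 20 listed, 4 rose and 4 fell (median -0.04 log2), which is 44.4% called, against 16.5% of all genes. NFE2L1, a partner of small MAF proteins that controls proteasome genes, rose to 352 ± 6.08 CPM in induced E2 cells, against 217 ± 6.08 CPM in induced vehicle cells (log2 0.70, SE 0.03, adjusted p = 2.29e-09). Its relatives NFE2L2, the NRF2 oxidant sensor, and NFE2L3 fell by 0.32 and 0.28 log2 (SE 0.04 and 0.06). BACH1, a repressor that also needs a small MAF partner, fell by 0.25 log2 (SE 0.06). BATF, a JUN partner that lacks an activation domain, rose by 0.42 log2 (SE 0.06). Without E2, induction raised NFE2L1 by 0.23 log2 (SE 0.03) and BATF by 0.33 log2 (SE 0.06), and no other partner was called by edgeR. These are 11.1% of the partners, against 3.81% of all genes. With the replicate block NFE2L2 was called as well, as lower (adjusted p = 0.0448), where 10% of all genes were called.

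Genes upstream of AP-1 also had calls in both directions. Of 20 tested genes for serum response factor, its cofactors and the ERK, JNK and p38 kinases, 5 rose and 3 fell with E2 in induced cells (median 0.01 log2), or 40% against 16.5% of all genes. MAPK8, the kinase JNK1 that phosphorylates JUN, rose by 0.47 log2 (SE 0.05, adjusted p = 2.83e-05). MAP2K1, the ERK activator MEK1, stood at 111 ± 13.3 CPM in induced E2 and 87.8 ± 5.99 CPM in induced vehicle cells (log2 0.34, SE 0.07, adjusted p = 0.00380), and MAPK14, the p38α kinase, rose by 0.18 log2 (SE 0.03). The p38 activator MAP2K3 fell by 0.21 log2 (SE 0.05). Induction without E2 changed 0 of the 20 by edgeR, where 3.81% of all genes were called, or 1 with the replicate block, where 10% were. In uninduced cells MAP2K4 had the smallest p with E2 (unadjusted p = 0.00423, adjusted p = 1, edgeR).

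Of 12 tested genes for turnover of AP-1 mRNA or protein, of 13 listed, 1 rose and 1 fell with E2 in induced cells (median -0.0016 log2), and these 16.7% are near the 16.5% of all genes called. ZFP36, the tristetraprolin protein that destroys AU-rich mRNAs such as FOS, stood at 37.7 ± 2.66 CPM in induced E2 and 25.0 ± 3.15 CPM in induced vehicle cells (log2 0.61, SE 0.08, adjusted p = 0.000132). Its relative ZFP36L1 fell by 0.46 log2 (SE 0.07, adjusted p = 0.000233). Induction without E2 lowered ZFP36L2 by 0.48 log2 (SE 0.06) and raised FBXW7, the ubiquitin ligase subunit that recognizes JUN, by 0.31 log2 (SE 0.06). These are 16.7% of the turnover genes, against 3.81% of all genes.

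Known AP-1 target genes were another mixed group. Of 15 tested of 24 listed, 5 rose and 1 fell with E2 in induced cells, with a median of -0.07 log2, or 40% called against 16.5% of all genes. With the replicate block 6 rose and 4 fell, where 23.8% of all genes were called. CCND1, which encodes cyclin D1, stood at 124 ± 1.64 CPM in induced E2 and 87.6 ± 8.02 CPM in induced vehicle cells (log2 0.50, SE 0.06, adjusted p = 2.70e-05). VEGFA rose by 0.35 log2 (SE 0.06) and the heme oxygenase gene HMOX1 by 0.28 (SE 0.06). PLAU, the urokinase protease, fell to 10.5 CPM in induced E2 cells, against 19.3 CPM in induced vehicle cells (log2 -0.87, SE 0.07, adjusted p = 7.56e-07). Induction without E2 called 1 target, or 6.67% of those tested, against 3.81% of all genes. It was the keratin gene KRT17, which fell by 0.67 log2 (SE 0.11, adjusted p = 0.00311).

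More immediate early genes outside AP-1 rose than fell. Of 15 tested of 16 listed, 8 rose and 1 fell with E2 in induced cells (median 0.36 log2), or 60% called against 16.5% of all genes. EGR1 stood at 59.5 ± 3.22 CPM in induced E2 and 26.2 ± 0.588 CPM in induced vehicle cells, an increase of 1.19 log2 (SE 0.07) that is smaller than that of FOS. CYR61, a matrix signaling gene, rose by 1.32 log2 (SE 0.06) and KLF10, a zinc finger factor, by 1.01 log2 (SE 0.06). EGR3 rose by 5.39 log2 (SE 0.14), beyond any AP-1 factor gene, and MYC by 0.46 log2 (SE 0.06). Among 8 heat stress genes, taken as a sign of handling, HSPB1 and HSPH1 rose, by 0.65 and 0.34 log2 (SE 0.05 and 0.06), and 0 fell, or 25% called against 16.5% of all genes. The summed level of the 8 was 5583 to 5951 CPM in induced E2 libraries, against 5413 to 5537 CPM in induced vehicle libraries. It was 5315 to 5685 CPM in uninduced E2 and 5220 to 5659 CPM in uninduced vehicle libraries, which both overlap induced E2. Its part in the AP-1 results was not tested. With induction alone CYR61 rose by 0.70 log2 (SE 0.07) and HSPB1 by 0.30 log2 (SE 0.05). No other gene of these 2 lists was called there by edgeR. That is 6.67% of the immediate early and 12.5% of the heat stress genes, against 3.81% of all genes. In uninduced cells E2 called 0 genes of all 6 lists. In induced E2 against uninduced E2 cells, where 28% of all genes were called, 2 partners rose and 5 fell, 5 upstream genes rose and 2 fell, 3 turnover genes rose and 3 fell, 4 targets rose and 4 fell, 8 immediate early genes rose and 2 fell, and 2 heat stress genes rose.

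**Figure D5:**
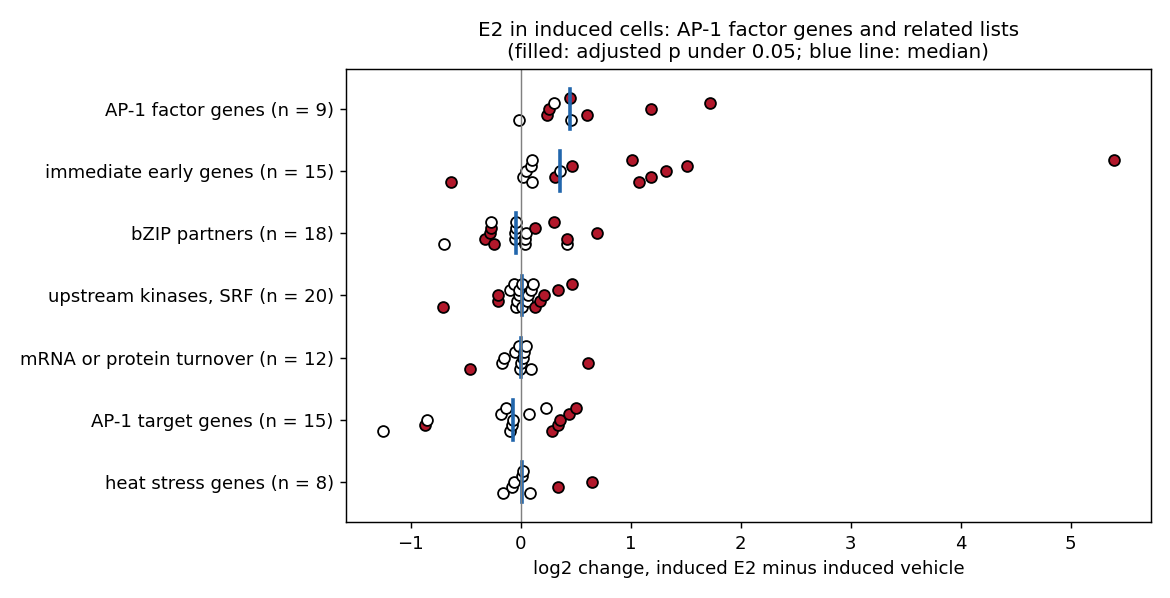
Log2 change with E2 in induced cells (x axis) for the AP-1 factor genes and 6 related lists (y axis), 1 point per tested gene, filled for an adjusted p under 0.05, with a blue line at the median of each list. The medians of the AP-1 factor genes (0.45) and immediate early genes (0.36) lie above 0 and the other 5 lie between -0.07 and 0.01.

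The genes whose level over the 12 libraries was most like that of a member were found by Pearson's r of log2 CPM over 12414 genes, with no test. It was computed for the 7 members called in at least 1 comparison, so not for FOSB and FOSL1. The 12 libraries share their 4 groups. PPARD (r = 0.990), PIK3R3 (0.986) and RSF1 (0.983) were most like FOS, and C16orf74 (0.997), WDR26 (0.996) and NFE2L1 (0.994) most like MAFF. SLC6A2 (0.978), KRT17 (0.967) and MCM4 (0.965) were most like JUN. For JUND they were MBOAT1, TIMP3 and A4GALT (0.985 to 0.975), for ATF3 SPECC1L, SRP68 and LBH (0.967 to 0.958), and for JUNB BSND, TSPAN14 and MTSS1L (0.965 to 0.947). FOSL2 had no match as close, with DLG3 first at 0.894, then DCAF15 (0.889) and CNKSR3 (0.888).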

How the data were processed

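RNA was extracted with the RNeasy Plus kit and TruSeq Sample Preparation V2 made the libraries, per the labels' protocols. The authors deposited, for each of 12 libraries, RSEM expected counts per gene and a second value, the fraction of all transcripts that belong to the gene (sum 1 per library). The submitters' processing notes list RSEM 1.1.16, DESeq 1.7.10 and hg19, with no role for DESeq. The aligner and strand setting are not given in the sources used here. Per GENCODE 29, FOSB, FOSL2, JUNB and MAFF overlap a gene on the opposite strand (ERCC1, FLJ31356, HOOK2 and PLA2G6), so without strand in the counting their reads cannot be told apart there. Multiplying the deposited fraction by 1000000 gave TPM.

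After rounding, the expected counts were tested with edgeR 4.0.16 (R 4.3.3) (filterByExpr with a minimum count of 10 and minimum total of 15, 14541 of 23228 genes kept, TMM scaling, 1 mean per group over all 12 libraries, 8 residual degrees of freedom). Genes with an adjusted p under 0.05 were called. Each SE was computed as the absolute log2 change over the square root of the F statistic, and 95% intervals used this SE with 13.7 degrees of freedom. An SE can thus differ from the spread behind the printed p. JUNB with induction alone had -0.025 log2 with an SE of 0.049, but an edgeR p of 0.986. Total counts were 7.89 M to 33.3 M per library, where a floor of 3 counts comes to 0.0896 to 0.375 CPM, below every value of the 9 genes; such floors cover counting error only. Log2 CPM used a prior count of 2.

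The members, gene lists, naming rule and alternatives were chosen with earlier results of these data known. All 9 members were named in every comparison, with up to 5 called genes of each other list by smallest p (up to 2 where none was called), and, for the 7 members called in any comparison, the 3 genes of highest correlation (average log2 CPM 1 or more). Alternatives were DESeq2 1.42.0, limma-voom (limma 3.58.1), RLE and upper quartile scaling, no filter, a filter of 1 CPM in 3 libraries, only the groups compared, the replicate block (6 residual degrees of freedom), and leaving out libraries or replicate numbers. Replicate numbers were taken to pair the samples because the deposited file names put each number on its own lane in all 4 groups, number 1 with another date-like tag than 2 and 3. Deviations from group means of same-numbered libraries correlated at 0.0409 to 0.433 (18 pairs, 13 over 0.1), and of differently numbered ones at -0.398 to 0.321 (36 pairs, 12422 genes).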

Additional observations from a re-analysis of the deposited data

Results flagged for a closer look

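The change with E2 differed between induced and uninduced cells for 5 of the 9 AP-1 factor genes, by the test of the interaction in edgeR over all 12 libraries. The difference was 1.88 log2 for FOS (SE 0.27, adjusted p = 0.000351), 1.20 log2 for MAFF (SE 0.10, adjusted p = 2.28e-06), 0.57 log2 for JUND (SE 0.09, adjusted p = 0.000743), 0.36 log2 for ATF3 (SE 0.10, adjusted p = 0.0325) and 0.34 log2 for FOSL2 (SE 0.07, adjusted p = 0.00763). In each of the 5 the E2 change was higher in induced than in uninduced cells. Over all genes 8.47% passed the same test. The call of ATF3 ended in 8 of 12 fits that left out 1 library. Without the libraries numbered 2, or those numbered 3, 2 members were called. Over all genes 370 and 306 were called in these fits, against 1232 with all 12 libraries.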

How the results depend on the processing

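Of 1026 repeats of a member's log2 change, 936 kept their direction and their side of the threshold, 39 lost a call, 6 gained one and 45 changed sign, with 0 of these called. Of the 39 lost calls 36 came from leaving out libraries. Apart from leave-outs, the sign changed for ATF3 with induction alone (0.003407 log2 with limma-voom, 0.003316 with the replicate block), for FOS with induction alone (0.005047 with the block) and for the JUN interaction (-0.0002295 with limma-voom, -0.02678 under upper quartile scaling, -0.001232 without a filter, -0.0054 with the block). Leave-outs moved the log2 change of JUN with E2 in induced cells over -0.09746 to 0.08605. With induction alone they moved FOS over -0.1648 to 0.1968, FOSB over -0.3682 to 0.01363, FOSL1 over -0.206 to 0.3301, JUNB over -0.07307 to 0.04421 and ATF3 over -0.05539 to 0.03877. With E2 in uninduced cells they moved FOS over -0.3109 to 0.1308, JUN over -0.03948 to 0.03257, JUND over -0.009955 to 0.08466 and MAFF over -0.1136 to 0.03182. The interaction moved over -0.07152 to 0.4667 for FOSL1 and -0.0816 to 0.101 for JUN. FOSL2 with induction alone was called at -0.19 log2 by DESeq2 (adjusted p 0.0465) and with the stricter filter (0.0472), and at -0.21 log2 under upper quartile scaling (0.0322).

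Leaving out 1 library or 1 replicate number gave 990 to 3391 genes called for E2 in induced cells, 106 to 1082 for induction alone, 0 to 1 for E2 in uninduced cells, 2054 to 5064 for induction with E2 and 306 to 2105 for the interaction. The 1082 and 2105 came without the libraries numbered 1, and the 106 and 306 without those numbered 3. Over all these leave-outs, members called numbered 5 to 7, 0 to 2, 0, 4 to 7 and 2 to 5. For induction alone the count was 1 without induced vehicle replicate 3 or uninduced vehicle replicate 3 and 0 without uninduced vehicle replicate 2. Without the libraries numbered 2 or 3 neither JUN (adjusted p 0.0653 and 0.349) nor MAFF (0.0593 and 0.131) was called for induction alone, nor JUNB (0.0859 and 0.0985) for induction with E2, and ATF3 was not called there without number 3 (0.0643). With the replicate block 1456 genes were called for induction alone and 2143 for the interaction; beyond FOSL2 and JUNB it changed no call of a member. DESeq2 called 1 gene for E2 in uninduced cells, not a member. Under upper quartile scaling the share of higher calls with induction and E2 was 40.2%, against 53.6% with TMM. Averaging log2 levels instead of summing gave FOS-type to JUN-type differences of 0.423 (E2 in induced cells), 0.582 (induction with E2) and 0.504 log2 (interaction). Averaging weights FOS as much as FOSL2, and also the low-count genes FOSB and FOSL1, which edgeR called in no comparison of all libraries. Counts per library were lowest for FOSB (15 to 58), FOSL1 (34 to 95.9) and FOS (25 to 382). The part of depth in the spread of these genes was not tested.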
